A study of Mus musculus with 12 samples.

Results

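The interaction of Sdc1 knockdown with interferon-γ (IFNγ) was examined in B16 mouse melanoma cells, that is, for each gene, how far its response to IFNγ differed between knockdown and control cells. The value is a difference of differences on the log2 scale: the IFNγ effect in knockdown cells minus the IFNγ effect in control cells, so a positive value means a more positive response in knockdown cells. It was estimated for every gene with enough counts, 14089 of the 56093 entries in the count table. B16 cells grown in DMEM with 10% serum carried a short hairpin RNA against Sdc1 (shSdc1) or against RFP, a fluorescent protein mouse cells lack (shRFP, the control). Each was left unstimulated or given IFNγ at 10 ng/ml for 24 h, and the 4 groups held 3 libraries each. The sources used here do not give the number of hairpins, and an effect of the hairpin on other transcripts cannot be told apart from an effect of losing Sdc1. Nothing in the labels states that replicates were grown as separate cultures. The p-values therefore rest on the spread among 3 libraries per group, and that spread may be technical.

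Sdc1 encodes syndecan-1, a transmembrane proteoglycan whose heparan sulfate chains bind growth factors, chemokines and matrix proteins. IFNγ binds its receptor (Ifngr1, Ifngr2), which activates the kinases JAK1 and JAK2. Among the genes this induces is Irf1, whose product in turn activates genes with an interferon-stimulated response element (ISRE). STAT2 and IRF9 act at ISREs in the main route of type I interferon. In melanoma cells these pathways raise MHC class I and antigen processing and can lower proliferation and pigmentation.

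The libraries held 14337771 to 21548940 counts. Levels below are CPM values (counts scaled to a common library total with TMM factors), listed for replicates 1, 2 and 3 of a group. Sdc1 (ENSMUSG00000020592) stood at 76.4, 73.9 and 75.9 CPM in control and 23.4, 22.1 and 25.7 CPM in knockdown cells without IFNγ, and at 83.3, 79.6 and 103 CPM and 27, 25.1 and 25.4 CPM with it. Every knockdown library was below every control library, and the interaction for Sdc1 itself was -0.11 (SE 0.12, edgeR adjusted p = 0.61). All 7 melanocyte markers examined were measured, with a summed level of 17200 to 17300 CPM in control, 12900 to 13400 CPM in knockdown, 16600 to 18200 CPM in control with IFNγ and 11700 to 13200 CPM in knockdown with IFNγ. Of 12 leukocyte markers 3 passed the filter and Cd3e and Adgre1 were at 0 in every library. Their summed level was 3.11 to 3.56, 8.62 to 9.21, 6.72 to 9.08 and 16 to 17.4 CPM in the same order of groups, and its part in the results was not tested. One entry, ENSMUSG00000119584, took 4.79% of the counts of shSdc1 replicate 3 and 0.0842 to 0.195% in the other 11 libraries. That library stood apart from its replicates also without this entry, with a chi-square per gene of 8.28 and 8.21 against 2.3 between the other pair. Control libraries with IFNγ were spread too, at 5.57 for replicates 1 and 2, 4.14 for 1 and 3 and 7.63 for 2 and 3.

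The IFNγ response differed between knockdown and control cells for 1371 genes, 9.73% of those tested, at an adjusted p under 0.05 in edgeR's quasi-likelihood test with Benjamini-Hochberg adjustment. The difference was positive for 645 genes (4.58% of those tested) and negative for 726 (5.15%). Without shSdc1 replicate 3 the count was 1127, of which 1036 were shared, and it fell to 847 without shRFP replicate 1, 839 without shRFP replicate 2, 789 without shSdc1 replicate 1 and 822 without shSdc1_IFNg replicate 2. Most differences were small. The median size among called genes was 0.36 (5th to 95th percentile 0.21 to 1.19), and 975 of the 1371 were below 0.5. A size of at least 1 was reached by 108 called genes (0.767% of those tested), 84 positive and 24 negative. For 1259 called genes the sign held for every choice of 1 library from each group, which was so for 15.1% of all genes tested. Both rest on the same libraries, so a higher share among called genes follows from the selection and adds no support. On an additive CPM scale the difference of differences had the same sign for 1358 called genes and the opposite sign for 13. The called genes next to the threshold were Ccdc124, Nap1l4 and Cdk18 (adjusted p 0.0496 to 0.0498), and the nearest outside were Xylt1, Cdkn1b and Aspg (0.05 to 0.0502).

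Called genes were sorted by the IFNγ effects that made up the difference, each at an adjusted p under 0.05. In control cells IFNγ raised 17.2% and lowered 14.4% of all genes tested, and in knockdown cells it raised 17.5% and lowered 13%. A response was gained, that is, significant in knockdown cells only, for 191 genes that rose and 351 that fell. A response was lost, significant in control cells only, for 210 that rose and 231 that fell. Where both responses were significant and had the same sign, the rise was larger in knockdown cells for 113 genes and smaller for 58, and the fall was larger for 16 and smaller for 47. The response reversed for 121 genes, 78 from a rise in control to a fall in knockdown cells and 43 from a fall to a rise. For the remaining 33 genes neither response was significant alone. A response that passes in only 1 of the cell lines is a class here because the difference itself passed its own test.

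**Figure D1:**
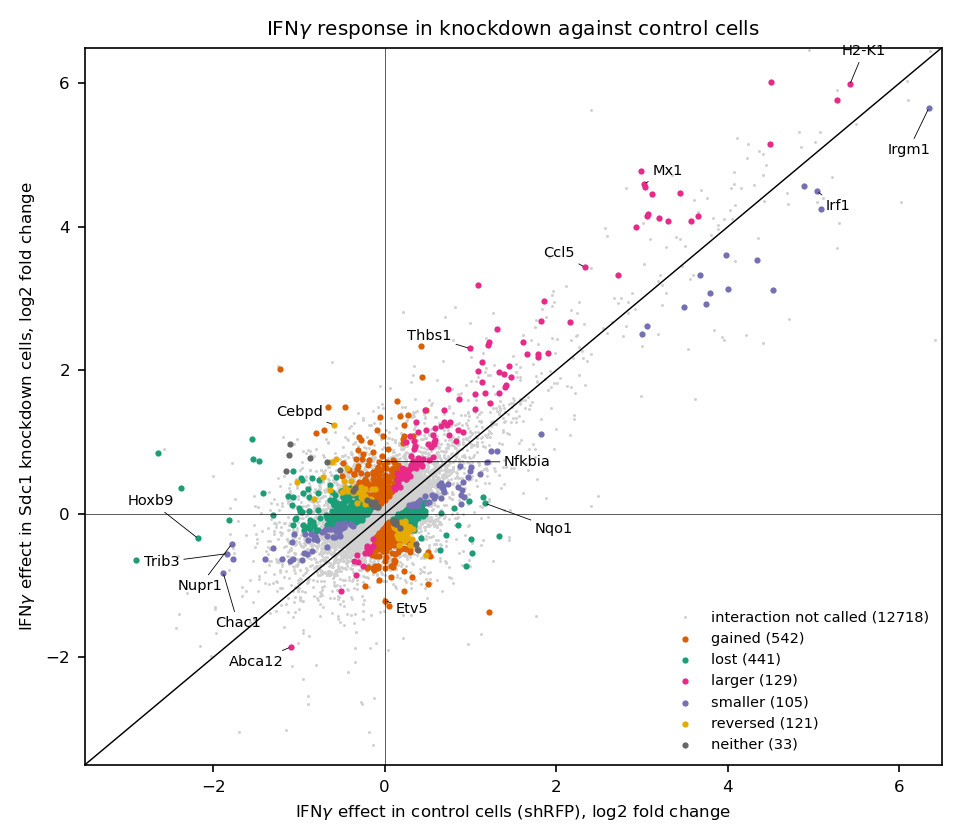
Log2 fold change with IFNγ in knockdown cells (y axis) against that in control cells (x axis), 1 point per gene, coloured by class; on the diagonal both responses are equal. Larger rises such as Mx1 (4.60 against 3.03) lie above the diagonal at the right, smaller falls such as Trib3 (-0.55 against -1.83) above it at the left, and 77 genes, 6 of them called, lie outside the axes.

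The same genes can be read from the knockdown side. Knockdown raised 14% and lowered 14.6% of all genes tested without IFNγ, and raised 18.9% and lowered 17.4% with it. Of the 1371 called genes, 606 (44.2%) had a significant knockdown effect with IFNγ only and 382 (27.9%) without IFNγ only. In 238 (17.4%) both knockdown effects were significant with the same sign, in 116 (8.46%) they had opposite signs, and in 29 (2.12%) neither was significant. The knockdown effect was larger in size with IFNγ for 810 genes and smaller for 561.

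**Figure D2:**
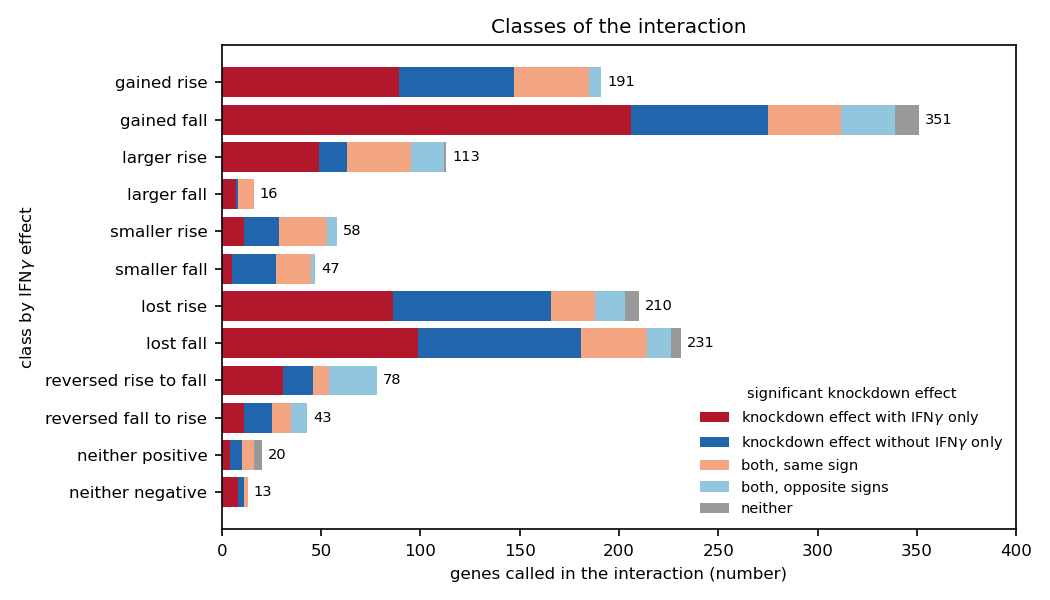
Number of called genes in each class by IFNγ effect (bars, total at the end), divided by the condition in which the knockdown effect was significant. In the 351 gained falls the knockdown effect with IFNγ only makes up the longest segment.

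A set of antiviral genes of the type I interferon programme rose further with IFNγ in knockdown than in control cells. Of 37 measured genes of this list 13 were called positive and 2 negative (40.5% called, against 9.73% of all genes), with a median interaction of 0.48 against 0.023 over all genes tested. All 13 were larger rises: Mx1, Ifit3b, Mx2, Usp18, Cmpk2, Rsad2, Ifit1, Ifit2, Isg15, Herc6, Ifit3, Adar and Eif2ak2. Without shSdc1 replicate 3, 13 were called positive and 1 negative, and without shRFP replicate 1, 10 and 0. Mx1 (ENSMUSG00000000386), a dynamin-like GTPase that blocks influenza virus, went from 3.87, 3.03 and 4.01 CPM to 30.4, 28.2 and 30.6 CPM with IFNγ in control cells, and from 2, 2.13 and 3.24 CPM to 61.7, 62 and 55.6 CPM in knockdown cells. With IFNγ every knockdown library was above every control library, whereas without IFNγ the fitted knockdown effect was negative (-0.56) and the groups overlapped. The interaction was 1.58 (SE 0.19, edgeR adjusted p = 6.5e-05).

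Ifit3b, a tetratricopeptide protein of the antiviral IFIT family, stood at 1.91, 1.72 and 2.28 CPM in control and 0.729, 1.19 and 1.71 CPM in knockdown cells, and at 44.9, 43.5 and 45.4 CPM and 78, 81.3 and 77 CPM with IFNγ. The knockdown libraries were the highest with IFNγ. Without it they were the lowest, but only just, at 1.71 CPM for shSdc1 replicate 3 against 1.72 CPM for shRFP replicate 2. The interaction was 1.51 (SE 0.23, edgeR adjusted p = 0.00045). Mx2, the other MX GTPase, gave 1.34 and Usp18, a protease that removes ISG15 and dampens the type I receptor, gave 1.08 (edgeR adjusted p = 0.018 for each). Both calls were lost in some fits with a library left out: Mx2 without shRFP replicate 2 or shSdc1 replicate 2, and Usp18 without shRFP replicate 1 or shSdc1 replicate 1. Ifit3 and Ifit3b, and Mx1 and Mx2, are close copies whose reads may have been shared, so the division between them is uncertain. The 2 negative calls were Bst2 and Ifi35, both smaller rises. Of the 22 members not called, Zbp1, Ifi44 and Oasl1 had positive estimates of 3.83, 3.00 and 1.66; these 3 were chosen after their values were seen.

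Promoters are shown for a gene of this group and for Irgm1, whose rise was smaller in knockdown cells, because both hold the ISRE letters GAAANNGAAA and yet differ in direction. The 250 bases before the start site come from RefSeq (GRCm38.p6), at chr19:34607707-34607956 (plus strand) and chr11:48871421-48871670 (minus strand), and capitals mark matches on either strand, those of Irgm1 overlapping.
Ifit3b: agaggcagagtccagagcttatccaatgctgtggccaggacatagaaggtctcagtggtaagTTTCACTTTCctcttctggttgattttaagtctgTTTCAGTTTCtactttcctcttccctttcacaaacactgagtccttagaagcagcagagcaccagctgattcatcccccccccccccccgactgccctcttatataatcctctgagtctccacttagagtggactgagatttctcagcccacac
Irgm1: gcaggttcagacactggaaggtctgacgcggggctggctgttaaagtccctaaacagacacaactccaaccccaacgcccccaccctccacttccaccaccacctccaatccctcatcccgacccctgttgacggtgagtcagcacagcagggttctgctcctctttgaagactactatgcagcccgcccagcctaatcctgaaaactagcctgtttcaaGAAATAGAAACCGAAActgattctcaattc
Over 300-base promoters the ISRE letters were found in 3.03% of those of genes tested and 3.44% of all RefSeq promoters. The share was 13% in larger rises, 14.5% in smaller rises, 41.9% in the antiviral list (13 of 31 promoters) and 90% in the guanylate-binding and immunity-related GTPases (9 of 10). These sets overlap, since 13 antiviral genes were larger rises. Promoters were found for 9744 of the 14089 genes tested, and a match describes letters only.

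Irf1 rose with IFNγ from a higher starting level in knockdown cells, and so by a smaller ratio. Irf1 (ENSMUSG00000018899), a transcription factor of the interferon response, went from 10.6, 10.9 and 13.4 CPM to 377, 400 and 364 CPM in control and from 16.3, 16.6 and 15.3 CPM to 376, 349 and 361 CPM in knockdown cells. The groups did not overlap without IFNγ and overlapped with it, and the interaction was -0.55 (SE 0.10, edgeR adjusted p = 0.0019). Stat2, which acts with IRF9 at ISREs, rose further in knockdown cells, to 394, 398 and 377 CPM against 284, 269 and 259 CPM, from 20.7, 22.4 and 22.7 against 21.2, 23.8 and 19.3 CPM (interaction 0.50, edgeR adjusted p = 0.0018). Of 21 measured genes of the receptors, kinases, STAT and SOCS proteins, Stat2 and Tyk2 were those called with a positive interaction. Of all genes tested 4.58% were called positive. Calls of this list in the other direction, if any, are not reported here. Tyk2, a kinase of the type I receptor, gained a rise of 0.39 (interaction 0.28, edgeR adjusted p = 0.023), a call lost without any of 6 libraries (shRFP replicate 1 or 2, shSdc1 replicate 1 or 3, shRFP_IFNg replicate 2 or shSdc1_IFNg replicate 2). Differences for Ifngr1 (0.24, SE 0.13), Ifngr2 (0.08, SE 0.09), Jak1 (0.02, SE 0.06), Jak2 (0.26, SE 0.08) and Socs1 (-0.39, SE 0.94), the feedback inhibitor, did not pass (edgeR adjusted p = 0.26, 0.63, 0.9, 0.0502 and 0.84). The Jak1 estimate turned negative in 4 alternatives, that of Socs1 positive in 2, and Jak2 passed under upper-quartile scaling, under a filter of 1 CPM, without the assembled loci or without shSdc1_IFNg replicate 2.

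Guanylate-binding proteins and immunity-related GTPases, which attack the vacuoles of intracellular pathogens, had 0 positive calls in edgeR among 17 measured genes (1 at an unadjusted p under 0.05, 0 in DESeq2, 1 in limma-voom) and 3 negative calls, Gbp7, Irgm2 and Irgm1. Of the list 17.6% was called, against 9.73% of all genes tested (4.58% positive and 5.15% negative). With so few genes, 0 positive calls is near the share of all genes. Irgm1, a regulator of the other immunity-related GTPases, went from 18.3, 19.4 and 18.8 CPM to 1491, 1639 and 1469 CPM in control and from 28.2, 27.6 and 24.9 CPM to 1369, 1305 and 1407 CPM in knockdown cells. Knockdown libraries were all above control without IFNγ and all below with it (interaction -0.69, SE 0.08, edgeR adjusted p = 2.2e-05). Gbp7 (-1.34) ended above control and Irgm2 (-0.70) at overlapping levels, and on the additive CPM scale both differences were positive. Only 1 of the 3 calls was left without shRFP replicate 3, without shSdc1 replicate 3 or in limma-voom, and Gbp7 lost its call in 9 alternatives. Gbp and Irgm genes are families with similar copies, so their counts are uncertain. Ifi47, an immunity-related GTPase too, went from 0.957, 0.415 and 0.415 to 498, 528 and 475 CPM in control and from 2, 1.44 and 1.34 to 438, 419 and 438 CPM in knockdown cells (interaction -1.53, edgeR adjusted p = 0.0015). Its libraries separated in opposite orders without and with IFNγ.

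The called MHC class I genes divided by their step in the pathway, a division seen only after the values were known. The 3 positive calls of 23 measured genes were heavy chains, H2-K1, H2-D1 and H2-Q4. The 6 negative calls were Tap2, Psmb10, Erap1, Psme2, Psme1 and Tapbp, which make, trim, transport and load peptides. Of this list 39.1% was called, against 9.73% of all genes tested (4.58% positive and 5.15% negative). H2-D1 (ENSMUSG00000073411) went from 67.9, 67.6 and 64.5 CPM to 754, 753 and 878 CPM in control and from 56, 54.1 and 56.9 CPM to 942, 1002 and 880 CPM in knockdown cells. Its knockdown libraries were the lowest without IFNγ and the highest with it (interaction 0.51, SE 0.08, edgeR adjusted p = 0.00091). H2-K1 gave 0.56 (edgeR adjusted p = 0.016), with its call lost in limma-voom and without shRFP replicate 1, shRFP replicate 2 or shSdc1 replicate 3. H2-Q4 gave 1.02 (edgeR adjusted p = 0.012), lost without shRFP replicate 1, when H2-D1 was the only positive call left. Class I heavy chains are near-identical in long stretches, so their division of reads is uncertain.

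Psmb10 (ENSMUSG00000031897), a catalytic subunit of the immunoproteasome, went from 9.12, 8.6 and 10.2 CPM to 326, 312 and 309 CPM in control and from 14.8, 15.8 and 15.7 CPM to 305, 292 and 285 CPM in knockdown cells. Its groups separated without IFNγ and, with all knockdown libraries just below, with it (interaction -0.84, SE 0.08, edgeR adjusted p = 1.01e-05). Erap1, the aminopeptidase that trims peptides in the ER, started from 10.6, 12.7 and 12.5 CPM in control and 21.1, 20.8 and 18.1 CPM in knockdown cells and reached 242, 252 and 228 against 232, 228 and 235 CPM (interaction -0.81, edgeR adjusted p = 5.4e-05). Tap2, which pairs with Tap1 to carry peptides into the ER, differed at both ends. It started at 0.41, 0.653 and 0.553 CPM in control and 1.09, 0.813 and 0.794 CPM in knockdown cells and reached 59.6, 58.8 and 55.1 against 36.1, 34.5 and 38.9 CPM (interaction -1.43, SE 0.28, edgeR adjusted p = 0.0037). Without IFNγ every knockdown library lay above the highest control library, at low levels. With IFNγ every knockdown library lay below the lowest control library. Tap1 (0.03), B2m (-0.06), Nlrc5 (0.08), the class I transactivator, and Cd274 (0.23), which encodes PD-L1, were not called (edgeR adjusted p = 0.95, 0.38, 0.76 and 0.24). The Tap1 estimate changed sign in 5 of the fits with a library left out. Of 7 measured class II genes 0 were called in edgeR (against 9.73% of all genes), DESeq2 or limma-voom, and 1 had an unadjusted p under 0.05. Ciita, the class II transactivator, had 4 counts in control and 2 in knockdown cells over the groups without IFNγ (interaction 0.83, SE 1.1, edgeR adjusted p = 0.69).

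Of 13 measured chemokines Ccl5, which draws T cells and natural killer cells, was the only call (7.69% called, below the 9.73% of all genes). It went from 2.96, 4.39 and 4.35 CPM to 19.4, 17.6 and 20.8 CPM in control and from 6.8, 8.19 and 6.48 CPM to 79.3, 78.1 and 75.3 CPM in knockdown cells. Knockdown was higher in both conditions, and by more with IFNγ (interaction 1.11, SE 0.17, edgeR adjusted p = 0.00052). The CXCR3 ligands Cxcl9, Cxcl10 and Cxcl11, which attract activated T cells, were not called. Cxcl9 reached 13.8, 13.2 and 13.3 CPM in control and 75.9, 74.1 and 77.3 CPM in knockdown cells, but its counts without IFNγ were 3 and 1 over the groups, so the difference of folds rests on those (interaction 3.68, SE 1.2, edgeR adjusted p = 0.072). It passed in limma-voom and without shRFP replicate 1. Cxcl10 reached 306, 312 and 307 against 686, 692 and 666 CPM, with a knockdown effect of 0.90 already present without IFNγ, and its interaction was 0.24 (SE 0.09, edgeR adjusted p = 0.11, passing without shSdc1 replicate 3). Cxcl11 gave 2.35 (SE 1.2, edgeR adjusted p = 0.23). Among 14 checkpoint and costimulatory genes Cd47, the signal that restrains phagocytes, and Pvr, the poliovirus receptor, were called positive (14.3% called, against 9.73% of all genes). Cd47 reached 87.4, 89.7 and 85.3 CPM in knockdown and 58.1, 63.2 and 63.6 CPM in control cells from levels of 37.7, 37.2 and 33.2 and 41.2, 36.2 and 36.9 CPM (interaction 0.59, SE 0.09, edgeR adjusted p = 0.00044). The Pvr difference was small (0.26) and lost its call in 11 alternatives.

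Several NF-κB genes rose with IFNγ in knockdown cells but not, or by less, in control cells. NF-κB is a family of dimers held in the cytoplasm by IκB proteins, several of which they induce themselves. Of 18 measured subunits, inhibitors and targets, 6 were called positive and 0 negative in edgeR (33.3% called, against 9.73% of all genes). At an unadjusted p under 0.05 the counts were 9 and 0, and the median interaction was 0.53. Each alternative called 6 or 7 positive and 0 negative. Nfkbia (ENSMUSG00000021025), which encodes IκBα, stood at 28, 30.1 and 30.1 CPM in control cells and 26.4, 27.5 and 30.3 CPM with IFNγ. In knockdown cells it went from 45.5, 43.7 and 42.7 CPM to 73.4, 75.1 and 70 CPM. The control groups overlapped, the knockdown groups did not, and the interaction was 0.79 (SE 0.09, edgeR adjusted p = 2.1e-05).

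Relb and Nfkb2, the subunits of the non-canonical pathway, fell with IFNγ in control cells and rose in knockdown cells. Nfkb2 went from 57.2, 56.8 and 59.3 CPM to 37.7, 40.1 and 44.5 CPM in control and from 72.8, 70.9 and 80.3 CPM to 92, 95.9 and 88 CPM in knockdown cells (interaction 0.80, edgeR adjusted p = 2.1e-05). Relb went from 9.57, 11.9 and 10.6 CPM to 6.81, 7.16 and 9.09 CPM and from 15.4, 18.3 and 15.3 CPM to 23.4, 23.1 and 20.7 CPM (interaction 0.93, edgeR adjusted p = 0.0019). No library of a stimulated group overlapped its unstimulated group for either gene. Nfkbiz, an inducible nuclear IκB protein, was a larger rise (0.98, edgeR adjusted p = 0.0016), and Nfkbie and Tnfaip2 were the other calls. In 5 of the 6 the knockdown effect was significant with and without IFNγ, with the same sign. The Nfkbia promoter is shown as an example of the NF-κB motif (name alone, both strands), found in 70.6% of the 300-base promoters of this list and 10.3% of those of all genes tested; it lies at chr12:55492648-55492897 (minus strand) and the capitals mark the match.
Nfkbia: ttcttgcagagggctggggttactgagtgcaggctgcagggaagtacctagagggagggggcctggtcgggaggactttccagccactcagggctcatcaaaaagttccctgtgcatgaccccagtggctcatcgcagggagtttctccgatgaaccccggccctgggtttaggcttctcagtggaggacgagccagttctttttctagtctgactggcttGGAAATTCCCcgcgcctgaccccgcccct

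The signal-induced transcription factors Cebpd, Atf3 and Junb were also called positive. They come from different lists and were put together after their values were seen. Cebpd was the only call among 8 measured C/EBP, acute phase and complement genes (12.5% called, against 9.73% of all genes). Cebpd (ENSMUSG00000071637), a C/EBP factor of the acute phase response, went from 2.96, 2.37 and 2 CPM to 1.32, 1.93 and 1.69 CPM with IFNγ in control cells and from 3.04, 3.63 and 4.09 CPM to 8, 9.1 and 8.4 CPM in knockdown cells. It fell in control and rose in knockdown cells, with an interaction of 1.83 (SE 0.27, edgeR adjusted p = 0.00043). Atf3, a stress-induced bZIP factor, reached 26.4, 29.8 and 24.6 CPM in knockdown against 13.6, 17.1 and 16.4 CPM in control cells, from 11.4, 9.88 and 11.9 and 11.4, 12.1 and 13.1 CPM (interaction 0.92, edgeR adjusted p = 0.001). Junb, an AP-1 subunit, gained a rise, from 14.2, 14.3 and 15.5 to 27.3, 31.1 and 23.6 CPM, where control cells went from 14.3, 12.3 and 14.5 to 12.3, 12.2 and 17.8 CPM (interaction 0.87, edgeR adjusted p = 0.0064). Neither gene separated the lines without IFNγ.

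Atf3 and Junb belong to the list of MAP kinase feedback and immediate early genes, whose other 4 called genes were negative. This division within the list was seen only after the values were known. Over the list 11 estimates were positive and 13 negative, with a median of -0.11. Etv5 (ENSMUSG00000013089) and Etv1, ETS factors induced by ERK signalling, gained a fall, and Dusp6 and Dusp4, phosphatases that switch ERK off, were a smaller and a lost rise. Etv5 stood at 3.15, 2.43 and 2.28 CPM in control and 3.51, 2.18 and 2.32 CPM with IFNγ, and fell from 13.9, 13.3 and 15.8 CPM to 6.66, 5.79 and 6.06 CPM in knockdown cells (interaction -1.21, SE 0.25, edgeR adjusted p = 0.0054). Knockdown libraries stayed above control in both conditions. Etv1 fell from 8.38, 8.63 and 8.98 to 4.13, 4.61 and 4.27 CPM, against 4.1, 4.69 and 4.91 and 4.17, 3.49 and 3.94 CPM in control cells (interaction -0.77, edgeR adjusted p = 0.019, lost without shRFP replicate 1). In all, 2 of 24 measured genes of the list were called positive and 4 negative. That is 25% called, against 9.73% of all genes tested (4.58% positive and 5.15% negative). Without shRFP_IFNg replicate 3 the counts were 6 and 5.

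Genes of the integrated stress response had the highest share called of the 32 lists. ATF4, translated when eIF2α is phosphorylated, induces genes of amino acid synthesis, uptake and tRNA charging. Of 27 measured genes 22 were called positive and 0 negative in edgeR (81.5% called, against 9.73% of all genes). At an unadjusted p under 0.05 the counts were 25 and 0, and the median interaction was 0.51. IFNγ lowered all 22 in control cells, and in knockdown cells the fall was smaller for 16, lost for 5 and reversed for Aldh1l2. Counts in the alternatives ran from 19 to 23 positive with 0 negative, and 19 were called without shSdc1 replicate 3. The knockdown effect was significant without IFNγ only for 12 of the 22, and in both conditions with the same sign for 8; the median over the 27 was -0.63 without IFNγ and -0.05 with it.

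Trib3 (ENSMUSG00000032715), a pseudokinase induced by ATF4 and CHOP, went from 132, 147 and 139 CPM to 35.8, 38 and 43.7 CPM with IFNγ in control cells and from 59.5, 67.5 and 64.1 CPM to 43.2, 39.1 and 48.2 CPM in knockdown cells. The lines were apart without IFNγ and overlapped with it (interaction 1.28, SE 0.11, edgeR adjusted p = 2.1e-06). Chac1 (ENSMUSG00000027313), which degrades glutathione, went from 62.2, 62.5 and 60.5 to 14.8, 14.4 and 21.3 CPM and from 25.1, 29.3 and 27.2 to 14.8, 14.9 and 16.8 CPM (interaction 1.07, SE 0.15, edgeR adjusted p = 0.00028). Its stimulated groups overlapped too. Nupr1, a stress-induced chromatin protein, gave 1.36 (SE 0.14, edgeR adjusted p = 1.3e-05), from 36.9, 37.5 and 33 to 11.2, 9.03 and 11.1 CPM against 11.8, 12.4 and 11.2 to 9.18, 7.97 and 9.33 CPM.

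Pycr1, the last enzyme of proline synthesis, lost its fall: 11.4, 14.8 and 11.5 to 4.89, 4.61 and 5.78 CPM in control cells, and 6.26, 7.19 and 6.6 to 6.12, 7.44 and 6.26 CPM in knockdown cells (interaction 1.29, SE 0.20, edgeR adjusted p = 0.00067). Aldh1l2, a mitochondrial folate enzyme, fell from 70.2, 77.5 and 61.1 to 41.7, 37 and 39.6 CPM in control and rose from 44.5, 48.9 and 49.2 to 54.2, 54.3 and 56.3 CPM in knockdown cells (interaction 1.03, SE 0.10, edgeR adjusted p = 1.2e-05). Knockdown libraries were thus the lower without IFNγ and the higher with it. The other called members were Ddit4, Sesn2, Slc6a9, Atf5, Asns, Ddit3, Aldh18a1, Vegfa, Cebpg, Psph, Slc3a2, Slc7a5, Atf4, Mthfd2, Psat1, Shmt2 and Phgdh. The 5 not called were Ppp1r15a, Slc7a3, Slc7a11, Slc7a1 and Slc38a2.

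The promoters of Chac1 and Pycr1, a smaller and a lost fall, are shown for the ATF4-C/EBP letters TGATGNAA. They lie at chr2:119350992-119351241 (plus strand) and chr11:120643749-120643998 (minus strand) in GRCm38.p6 (RefSeq, 250 bases before the start site), with matches on either strand in capitals.
Chac1: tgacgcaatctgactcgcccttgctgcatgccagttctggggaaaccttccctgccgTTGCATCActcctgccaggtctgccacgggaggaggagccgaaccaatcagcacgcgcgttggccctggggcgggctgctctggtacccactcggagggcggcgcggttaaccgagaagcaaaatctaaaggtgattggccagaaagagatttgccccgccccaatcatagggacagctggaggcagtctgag
Pycr1: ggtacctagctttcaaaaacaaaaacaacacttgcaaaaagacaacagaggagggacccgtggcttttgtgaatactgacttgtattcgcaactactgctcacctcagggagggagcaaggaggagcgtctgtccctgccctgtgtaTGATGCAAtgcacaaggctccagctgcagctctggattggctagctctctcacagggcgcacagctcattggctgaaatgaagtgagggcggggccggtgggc
These letters were found in 2.27% of the 300-base promoters of genes tested and 20% of those of the list (6 of 30). For smaller falls the share was 19% (11 of 58) and for the aminoacyl-tRNA synthetases 50% (5 of 10). The sets overlap, since 16 genes of the list and 4 synthetases were smaller falls. The synthetases, which charge tRNAs, followed with 9 of 18 called positive and 0 negative in edgeR (50% called, against 9.73% of all genes). At an unadjusted p under 0.05 the counts were 11 and 0, and the median interaction was 0.21. Each alternative called 8 to 10 positive and 0 negative. Cars, Sars, Aars and Nars were smaller falls, Lars, Tars, Eprs and Gars lost falls and Vars a gained rise. Sars, the seryl-tRNA synthetase, went from 668, 675 and 679 CPM to 422, 414 and 451 CPM in control and from 427, 441 and 433 CPM to 379, 364 and 387 CPM in knockdown cells (interaction 0.45, edgeR adjusted p = 5.5e-05). Its groups did not overlap in either condition. The chaperones of the unfolded protein response, a neighbouring stress pathway, had 1 positive call (Herpud1) and 1 negative call (Manf) among 19 (10.5% called, against 9.73% of all genes); without a filter the counts were 1 and 4.

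**Figure D3:**
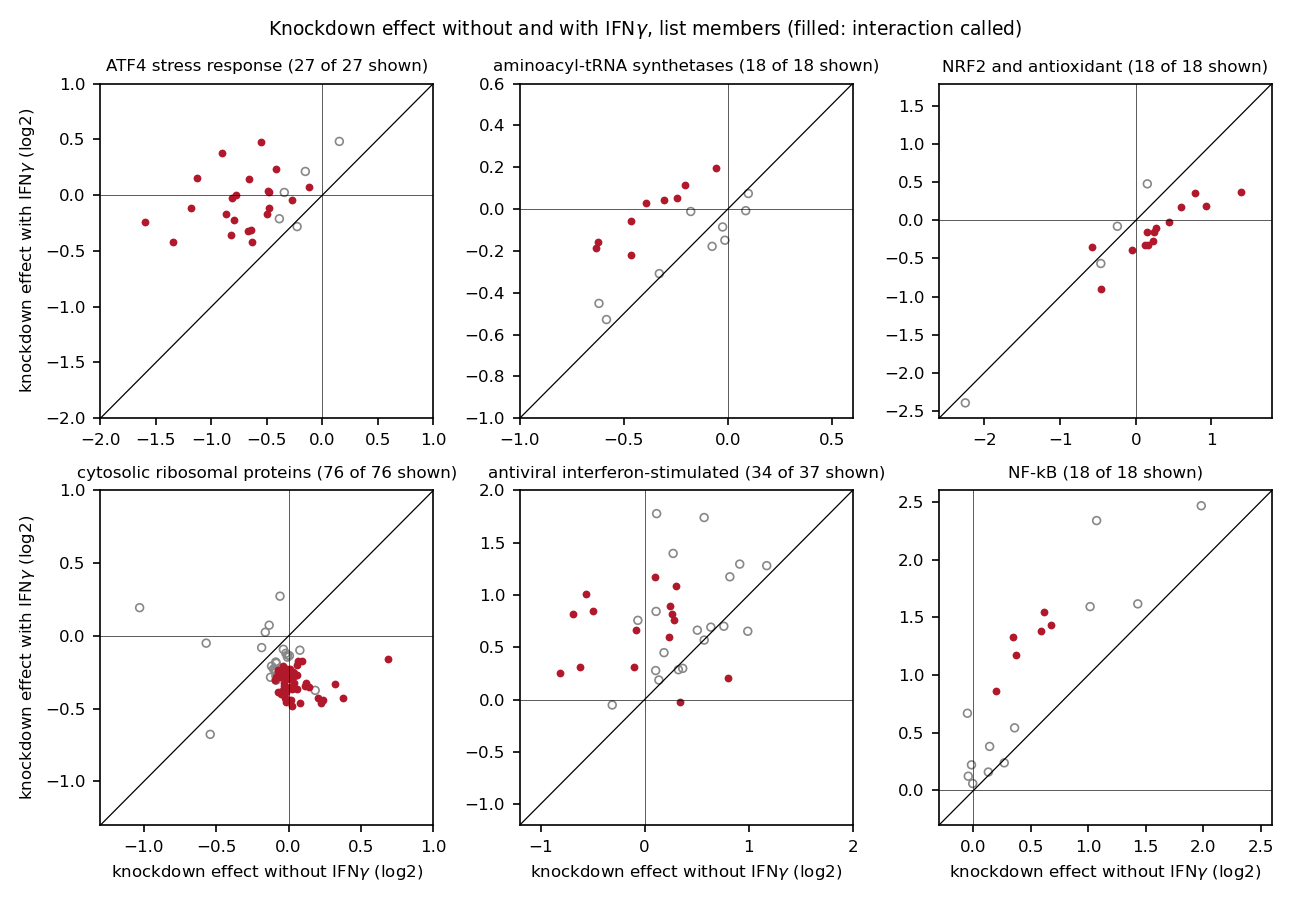
Knockdown effect with IFNγ (y axis) against that without IFNγ (x axis), log2 fold change, 1 point per measured gene in 6 lists, filled where the interaction was called. ATF4 genes lie at negative values without IFNγ and near 0 with it (medians -0.63 and -0.05), ribosomal protein genes near 0 without and below 0 with IFNγ (medians -0.01 and -0.27); 3 antiviral genes lie outside their panel.

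Antioxidant genes of the NRF2 programme moved in the opposite direction to the ATF4 genes. NRF2 is released from KEAP1 under oxidative stress and induces enzymes of glutathione, thioredoxin and quinone metabolism. Of 18 measured genes 13 were called negative and 1, Hmox1, positive (77.8% called, against 9.73% of all genes), with a median of -0.41. Every alternative called 13 negative, and Hmox1 was not called in 13 of the 20. Nqo1 (ENSMUSG00000003849), a quinone reductase, went from 6.34, 6.29 and 6.77 CPM to 13.6, 15.8 and 14.2 CPM with IFNγ in control cells and from 19.3, 15.1 and 16.3 CPM to 21.6, 16.1 and 18.4 CPM in knockdown cells. It rose in control cells only (interaction -1.02, SE 0.17, edgeR adjusted p = 0.0011), and every knockdown library was above every control library of the same condition.

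Srxn1 (ENSMUSG00000032802), sulfiredoxin, which repairs oxidised peroxiredoxins, reversed. It went from 81.4, 74.4 and 76.3 CPM to 91.4, 102 and 95.5 CPM in control and from 155, 143 and 145 CPM to 116, 106 and 108 CPM in knockdown cells (interaction -0.75, SE 0.08, edgeR adjusted p = 1.3e-05). Knockdown libraries were above control in both conditions, by less with IFNγ. Mt1, a metallothionein, and Sod1, the cytosolic superoxide dismutase, reversed likewise with -0.50 and -0.49 (edgeR adjusted p = 0.00014 each). Sod1 went from 148, 151 and 154 to 176, 189 and 188 CPM and from 177, 163 and 166 to 152, 145 and 144 CPM, so its order between the lines turned over. Txnrd1, Gsr, Gclc (gained falls), Gstm1 (reversed), Gclm, Gpx4, Prdx1, Txn1 (lost rises) and G6pdx (smaller rise) made up the rest.

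With IFNγ 56 of 76 cytosolic ribosomal protein genes and 23 of 48 nuclear genes of oxidative phosphorylation fell in knockdown cells (edgeR adjusted p under 0.05), by small amounts (medians of -0.18 and -0.14 over the lists), and 1 of each list rose. Of all genes tested 13% fell and 17.5% rose with IFNγ in knockdown cells. In the interaction 51 of the ribosomal protein genes were called negative and 0 positive in edgeR (67.1% called, against 9.73% of all genes). At an unadjusted p under 0.05 the counts were 64 and 2, and the median was -0.26. Of the 51, 43 were gained falls, 5 reversals and 3 lost rises. The knockdown effect was significant with IFNγ only in 48 of the 51. Rpl38, of the large subunit, stood at 79.1, 97.3 and 99 CPM in control and 113, 116 and 84.5 CPM with IFNγ, and went from 112, 101 and 108 CPM to 78.4, 73.5 and 76.1 CPM in knockdown cells (interaction -0.69, SE 0.13, edgeR adjusted p = 0.0039). Rps27, of the small subunit, went from 90.2, 81.4 and 98 to 51.4, 48.7 and 60 CPM in knockdown cells and from 71.9, 82.4 and 75.2 to 84.7, 68.2 and 63.8 CPM in control cells (-0.67, edgeR adjusted p = 0.0042). For both genes the control groups overlapped and the knockdown groups did not. Ribosomal protein genes have many processed pseudogenes, so their counts are uncertain. Rpl7a, the largest called difference of the list, ranged from 331 to 630 CPM among knockdown libraries and lost its call in 13 alternatives. Over the 20 alternatives 37 to 60 were called negative and 0 to 2 positive. The lowest count, 37, came without shSdc1 replicate 1 or shSdc1_IFNg replicate 2. Under DESeq2 size factors 51 were called negative and under upper-quartile scaling 46, with 0 positive in both, and 47 without shSdc1 replicate 3.

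Of 48 nuclear genes of oxidative phosphorylation 20 were called negative and 0 positive in edgeR (41.7% called, against 9.73% of all genes), 15 as gained falls. At an unadjusted p under 0.05 the counts were 29 and 0, and the median was -0.21. Uqcrh, a hinge subunit of complex III, stood at 104, 103 and 115 CPM in control and 113, 117 and 103 CPM with IFNγ and went from 123, 116 and 122 CPM to 89.2, 88.3 and 84.7 CPM in knockdown cells (interaction -0.52, SE 0.08, edgeR adjusted p = 0.00038). Only the knockdown groups separated. The count was 12 without shRFP replicate 2 and 13 without shSdc1 replicate 1 or without shSdc1_IFNg replicate 2. Of 10 mitochondrially encoded genes mt-Nd2 was called, in the positive direction (0.23, edgeR adjusted p = 0.0078). That is 10% called, against 9.73% of all genes. A negative call stood beside it in DESeq2, without a filter and without shRFP replicate 2, shRFP_IFNg replicate 3 or shSdc1_IFNg replicate 3. In these bulk samples fewer cells of a kind and less RNA per cell cannot be told apart.

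Cell cycle genes were also called in the negative direction, 14 of 32 for DNA replication and entry into S phase (43.8%, median -0.21) and 9 of 27 for mitosis (33.3%, median -0.08), with 0 positive in edgeR, DESeq2 and limma-voom (1 and 3 positive at an unadjusted p under 0.05). Of all genes tested 9.73% were called, 5.15% in the negative direction. Upper-quartile scaling called 12 negative and 1 positive of the replication list. Over the 20 alternatives that list had 10 to 18 negative and 0 to 1 positive calls. For the mitosis list the ranges were 7 to 10 and 0 to 2. Ccne1, cyclin E1, which drives entry into S phase, went from 49.7, 50.2 and 55.8 CPM to 65.1, 65.4 and 65.3 CPM in control and from 69.6, 71.2 and 68 CPM to 59.4, 60.1 and 61.6 CPM in knockdown cells (interaction -0.54, SE 0.07, edgeR adjusted p = 0.00014). The order of the lines turned over with IFNγ. Tk1, thymidine kinase, gained a fall, from 191, 190 and 193 to 156, 156 and 169 CPM, where control cells had 191, 189 and 206 and 211, 221 and 204 CPM (-0.38, edgeR adjusted p = 0.0019). Cdca8, of the chromosomal passenger complex, reversed (-0.37, edgeR adjusted p = 0.0095), and Bub1b and Aurkb lost rises (-0.28 and -0.25). Plk1 (-0.32) lost its call in 9 alternatives.

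**Figure D4:**
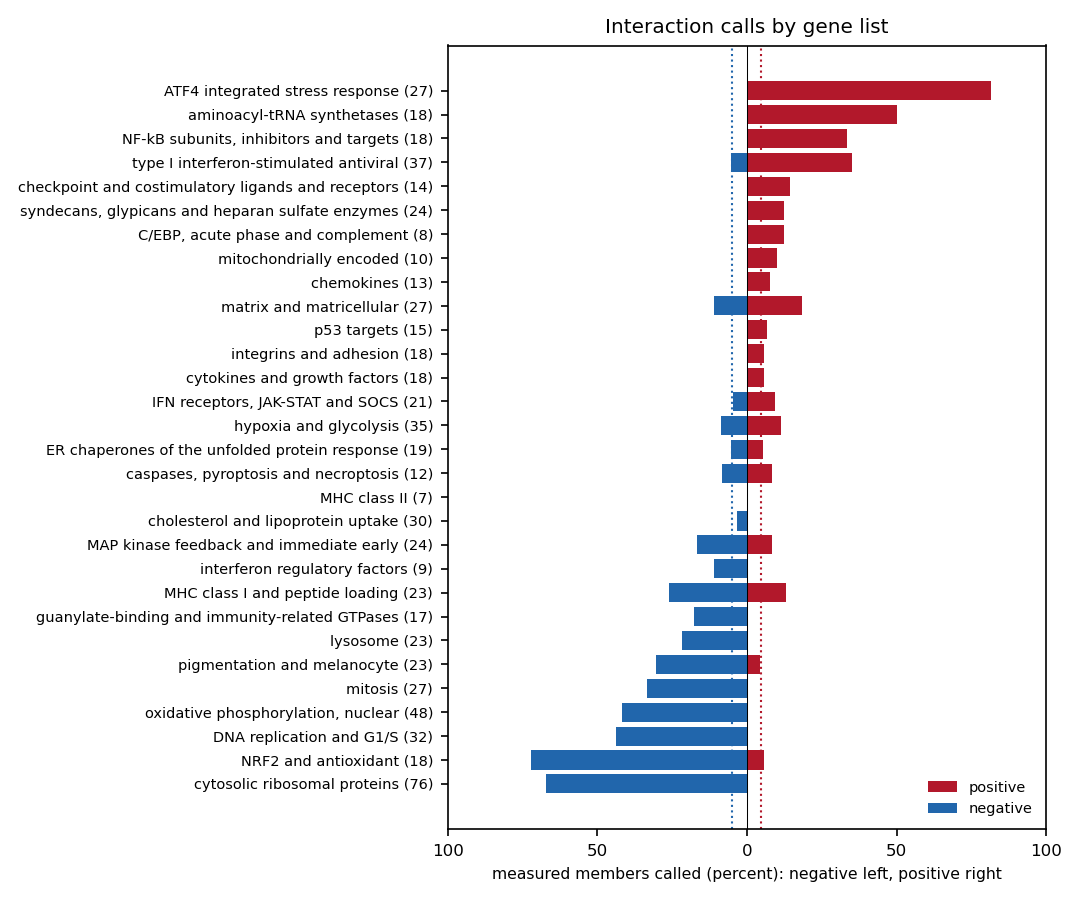
Share of measured members (number in brackets) called in the interaction, positive to the right and negative to the left, for lists with at least 5 measured genes; dotted lines mark the shares over all genes tested (4.58% and 5.15%). ATF4 and tRNA synthetase genes lie at the positive end, and NRF2 and ribosomal protein genes at the negative end.

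Of 23 pigmentation genes 7 were called negative and 1, the receptor Met, positive (34.8% called, against 9.73% of all genes), a count that dropped to 4 negative with the replicate block and without shRFP replicate 1, shRFP replicate 2, shSdc1 replicate 1, shSdc1 replicate 2 or shSdc1_IFNg replicate 2. Slc45a2, a melanosomal transporter, stood at 363, 353 and 365 CPM in control and 333, 354 and 325 CPM with IFNγ and went from 306, 295 and 297 CPM to 232, 209 and 227 CPM in knockdown cells (interaction -0.33, edgeR adjusted p = 0.0029). Gpr143, a melanosomal receptor, reversed, from 39.1, 42.7 and 38.7 to 46.2, 44.6 and 43.6 CPM and from 24.1, 24.3 and 23.4 to 19.1, 18.7 and 19 CPM (-0.50, edgeR adjusted p = 0.0013). Both were lower in knockdown cells in every library and further so with IFNγ. Tyr, Tyrp1, Dct, Mitf and Sox10 were not called.

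Matrix genes were called in both directions, 5 positive and 3 negative of 27 (29.6% called, against 9.73% of all genes). Thbs1 (ENSMUSG00000040152), thrombospondin-1, a matricellular inhibitor of angiogenesis, went from 12.4, 11.6 and 13.6 CPM to 24.5, 25.2 and 25 CPM in control and from 26.3, 28.6 and 26.6 CPM to 140, 139 and 124 CPM in knockdown cells. The knockdown libraries with IFNγ stood far above all others (interaction 1.31, SE 0.10, edgeR adjusted p = 6.7e-07). Mmp2, gelatinase A, gained a rise, from 6.74, 6.88 and 5.8 to 14.5, 14.2 and 11.3 CPM, against 5.2, 6.17 and 6.22 and 7.34, 6.17 and 6.83 CPM in control cells (0.82, edgeR adjusted p = 0.012). Timp3, a metalloproteinase inhibitor, reversed from a fall, 32.8, 37.3 and 32.6 to 22.4, 19.8 and 24.2 CPM, to a rise, 16.9, 18.7 and 16.4 to 22.9, 21.1 and 21.3 CPM (0.96, edgeR adjusted p = 7.8e-05). Its stimulated groups overlapped.

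Among 24 syndecans, glypicans and heparan sulfate enzymes 3 were called positive and 0 negative in edgeR (12.5% called, against 9.73% of all genes; 5 and 3 at an unadjusted p under 0.05); without shRFP_IFNg replicate 3 the counts were 3 and 3. Sdc4, syndecan-4, gained a rise, from 85, 83.3 and 81 to 129, 128 and 110 CPM in knockdown cells, where control cells had 76.4, 84 and 76.5 and 83.9, 87.4 and 92.3 CPM (interaction 0.40, SE 0.09, edgeR adjusted p = 0.0062). Hpse, heparanase, which cuts heparan sulfate, went from 13.5, 13.2 and 11.9 to 16.8, 17.8 and 19.6 CPM in control and from 5.53, 6.51 and 4.58 to 13, 11.5 and 12.7 CPM in knockdown cells (0.68, edgeR adjusted p = 0.014). Knockdown was below control throughout for Hpse and above it with IFNγ for Sdc4. Hs3st1, a sulfotransferase, lost a fall (1.24, edgeR adjusted p = 0.019), a call lost without shRFP replicate 1 or shSdc1_IFNg replicate 2. Sdc2 and Sdc3 were not called.

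The genes with the most extreme values of each class, by the naming rule, belonged to varied functions. Among gained rises Inpp1, an inositol phosphatase, reached 6.66, 7.74 and 5.6 CPM in knockdown cells with IFNγ from 1.58, 1.19 and 1.16 CPM, against 1, 1.07 and 1.24 and 1.59, 0.623 and 2.25 CPM in control cells (interaction 1.92, SE 0.45, edgeR adjusted p = 0.012). Asap3 (1.46), Glipr2 (1.43) and Palld (1.41) followed. Among gained falls Hoxa11, a homeobox factor, fell from 6.07, 6.19 and 5.5 to 2.25, 2.42 and 2.67 CPM in knockdown cells, to the level of both control groups (interaction -1.32, edgeR adjusted p = 0.0034). Rpl38-ps2 (-1.31), a pseudogene that can share reads with Rpl38, and Ccdc69 (-0.96, lost in 9 alternatives) were next, besides Etv5.

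Among lost falls Hoxb9, another homeobox factor, fell from 8.02, 7.24 and 5.87 to 1.79, 1.31 and 1.62 CPM in control cells and went from 7.17, 6.57 and 8.49 to 6.17, 5.49 and 5.86 CPM in knockdown cells (interaction 1.83, SE 0.24, edgeR adjusted p = 0.00014). The control libraries with IFNγ were the lowest of all 12. Chd5, a chromatin remodeller, fell from 14.3, 16.1 and 13.6 to 3.64, 3.8 and 5.07 CPM in control cells and went from 6.68, 9.45 and 7.45 to 7.41, 7.5 and 7.33 CPM in knockdown cells (1.73, edgeR adjusted p = 5.8e-05). Gapdh had a larger estimate (2.25), but its control libraries stood at 75.5, 481 and 453 CPM and its call was lost in 11 alternatives; it has many pseudogenes and is uncertain. Among lost rises, besides Nqo1, Cst6, a cysteine protease inhibitor, went from 57.3, 58.4 and 60.5 to 88.9, 85.7 and 103 CPM in control and from 109, 116 and 115 to 118, 120 and 107 CPM in knockdown cells (-0.64, edgeR adjusted p = 0.00024). Olfml3 (-0.72) lost its call in 7 alternatives.

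Abca12, a lipid transporter, led the larger falls, from 128, 124 and 125 CPM to 57.5, 62.7 and 56.3 CPM in control and from 87.9, 93 and 82 CPM to 24.9, 24.7 and 23 CPM in knockdown cells (interaction -0.76, SE 0.08, edgeR adjusted p = 1.6e-05). On the additive scale the sign was the opposite, a difference of 3.34 CPM. Cyp26b1, which degrades retinoic acid, gave -0.52, Klf15 -0.47 (call lost without shSdc1_IFNg replicate 2) and Usf2 -0.36 (lost in 9 alternatives). Casp12, an inflammatory caspase, led the smaller rises by estimate (-4.18), but its counts without IFNγ were 0 in control and 33 in knockdown cells over the group. Against a floor of 3 counts over the group it was at least 164-fold higher with IFNγ in control cells and 68.6-fold higher in knockdown cells, the floor covering counting error only. In CPM it reached 9.92, 7.73 and 10.3 in control and 47.2, 48.1 and 43.4 in knockdown cells, so the additive difference was positive. Its call was lost without shRFP replicate 1 or 2. Apol9a (-2.02), an apolipoprotein L, likewise rested on near-zero levels (0, 0.119 and 0.138 CPM in control cells without IFNγ) and lost its call in DESeq2, limma-voom and without shRFP replicate 1, shSdc1 replicate 1 or shSdc1 replicate 2. Cabp1, a calcium-binding protein, was a smaller fall outside the ATF4 list (1.15, edgeR adjusted p = 0.018).

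Reversals were called for Id2, Lrp8 and Tex30 as well as Srxn1. Id2, an inhibitor of helix-loop-helix factors, went from 84.9, 81.1 and 90.2 to 109, 112 and 92.6 CPM in control and from 65.7, 63.2 and 63.7 to 49.6, 46.4 and 47 CPM in knockdown cells (-0.72, SE 0.09, edgeR adjusted p = 9.1e-05). Cyb5r2, a cytochrome b5 reductase, fell from 13.9, 11.9 and 11.1 to 6.28, 5.23 and 6.83 CPM and rose from 4.56, 4.69 and 5.38 to 6.44, 6.56 and 6.86 CPM (1.46, edgeR adjusted p = 0.00014). The stimulated groups overlapped for Cyb5r2 and were widely apart for Id2. The 8 genes named where neither response passed were Onecut2, Slc25a43, Bcl2l2, Ppp6r2, Slbp, Ndufa5, Ipo11 and Cbfb. Their sizes were 0.23 to 0.71, and each lost its call in 4 to 14 alternatives.

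**Figure D5:**
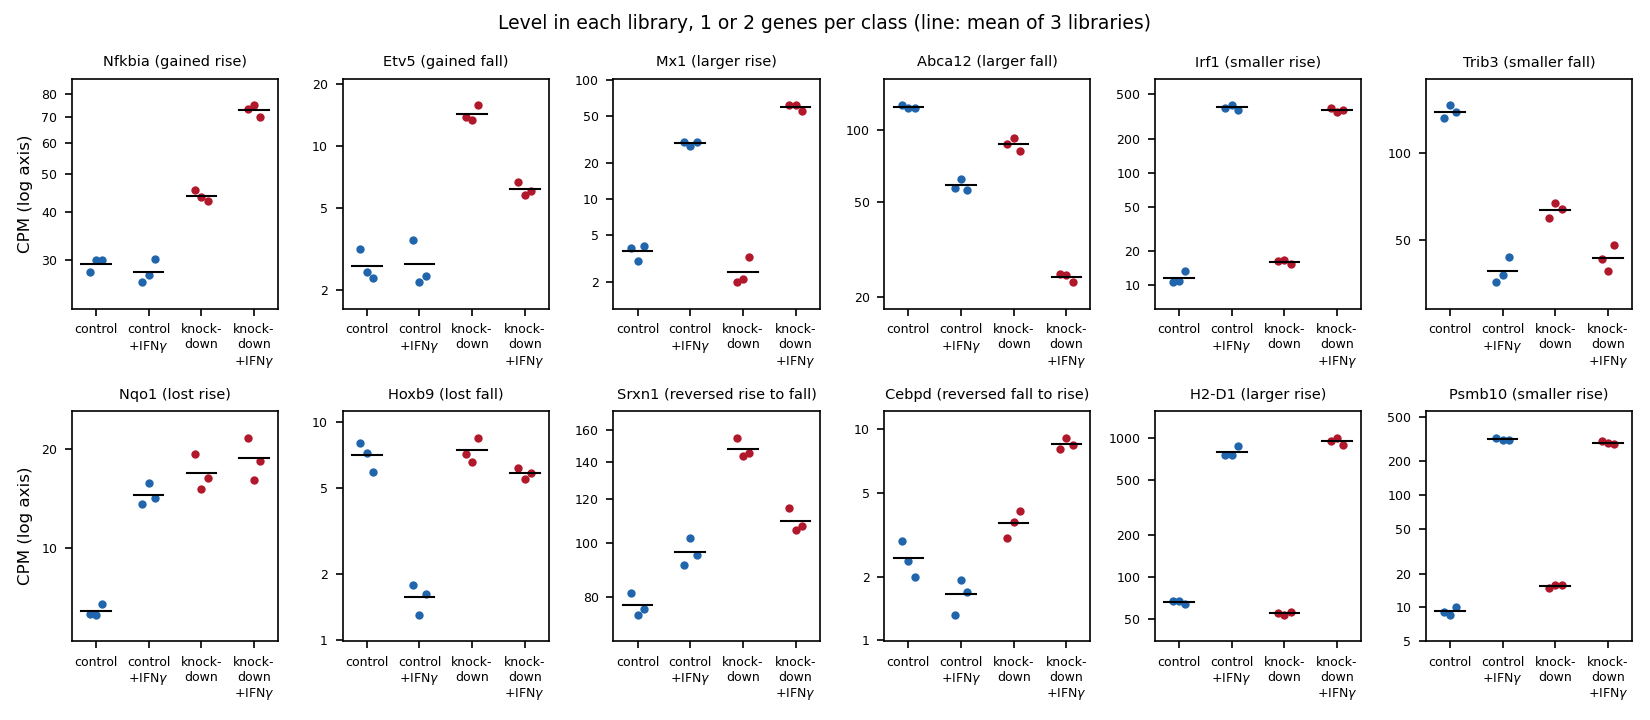
CPM in each library (points, log axis) for 12 genes in control and knockdown cells without and with IFNγ, lines marking the mean of 3 libraries and titles the class. Irf1 and Psmb10 start higher and end level or just lower in knockdown cells, and Trib3 starts lower and ends level.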

How the data were processed

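RNA was sequenced as paired-end reads from 12 libraries of B16 cells, 3 in each of 4 groups taken from the titles. The authors deposited whole-number counts per gene in 1 table. The submitters' processing notes list HISAT2 2.0.5, HTSeq, Trimmomatic and the build GRCm39, without settings. Which annotation and which strand option the counting had is not given in the sources used here. Reads of overlapping or antisense genes therefore cannot be told apart.

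Genes were kept with filterByExpr (minimum count 10, minimum total 15), which left 14089 of 27472 with a count; 13700 had a symbol. Counts were scaled by TMM, and edgeR 4.0.16 (R 4.3.3) fitted all 12 together (quasi-likelihood, 1 coefficient per group, 8 residual degrees of freedom, common biological coefficient of variation 0.0633, prior count 0.125). P-values were two-sided and adjusted over all genes by the Benjamini-Hochberg method at 0.05. The SE is the log2 difference over the square root of F. The interaction test was run on simulated counts. The sorting into classes, the lists and the motif search were not.

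Alternatives were DESeq2 size factors, upper-quartile scaling, DESeq2 1.42.0, voom in limma 3.58.1, other filters, the replicate number as a block, stricter thresholds and leaving out each library. Named genes were the 4 largest per class (5 CPM or more on average in any group, sign kept for every choice of libraries), 20 central genes and up to 4 per list (at least 1 CPM). Genes withheld from the text are not reported here. The comparison, the 32 lists and the rule were chosen with earlier results of these data known. Promoters came from RefSeq tables of GRCm38.p6, matched by symbol, and figures from matplotlib 3.10.9.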

Additional observations from a re-analysis of the deposited data

Results flagged for a closer look

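The response to IFNγ differed between knockdown and control cells, by a test of the difference itself, for 1371 genes, and this difference is the subject of the whole text. Among them are the 8 genes named by class that moved in opposite directions in the control and knockdown cells, each direction passing its own test. Srxn1 (-0.75), Id2 (-0.72), Tex30 (-0.61) and Lrp8 (-0.61) rose with IFNγ in control cells and fell in knockdown cells. Cebpd (1.83), Cyb5r2 (1.46), Aldh1l2 (1.03) and Timp3 (0.96) fell in control cells and rose in knockdown cells. The values are interactions on the log2 scale, and the 8 calls were kept in each of the 20 alternatives.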

How the results depend on the processing

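All 8 fits with other scaling, tests, filters or a block called within 1.5 times the 1371 genes of the main analysis, from 1028 to 1776, and 1244 of the 1776 without a filter were shared. The share of positive calls was 47% with TMM, 43.3% with DESeq2 size factors and 52.8% with upper-quartile scaling, and the median interaction of all genes was 0.0228, 0.0141 and 0.0333. Leaving out 1 library gave 789 to 1999 calls, 373 to 943 positive and 416 to 1056 negative; gained responses 297 to 712, lost 218 to 756, larger 78 to 130, smaller 68 to 157, reversed 64 to 178 and neither 15 to 66. Of the fits with a library left out, more than 1.5 times fewer genes were called without shRFP replicate 1, shRFP replicate 2, shSdc1 replicate 1 or shSdc1_IFNg replicate 2. The highest counts of called genes (1999) and lost responses (756) came without shRFP_IFNg replicate 3. The class with neither response significant held 72 genes in DESeq2 and 105 without a filter. An adjusted p under 0.01 left 485 genes, 228 positive and 257 negative, and a size of at least 1 left 108, 84 and 24. Requiring simple effects of at least 0.5 gave 163 gained, 150 lost, 67 larger, 40 smaller, 4 reversed and 947 neither; fewer effects can pass by construction.

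Same-numbered libraries of different groups did not deviate together (correlations -0.0359 to 0.021, 0 of 18 over 0.1). This cannot exclude that equal numbers mark a shared culture or day, which the labels do not state. With the replicate block 1028 genes were called, 1024 of them shared, and 21 had neither response.

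Of the 116 named genes that were called 35 lost the call in at least 1 of the 20 alternatives. Signs turned only for genes never called: Jak1 (-0.003212 without a filter; -0.0271, -0.026 and -0.0122 without single libraries, over which it ran from -0.0271 to 0.0452), Tap1 (-0.02782, -0.01237, -0.07291, -0.01854 and -0.003974; up to 0.163), Socs1 (0.05627 and 1.585; down to -1.21), Ciita (-0.2327; up to 3.5) and Sdc1 (0.007366; down to -0.19). The cause was not tested. Genes with a few counts in a group are limited by depth.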

Other observations

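Lysosomal genes, which degrade internalised material, had 5 negative calls of 23 measured and 0 positive in edgeR (21.7% called, against 9.73% of all genes; 2 positive and 10 negative at an unadjusted p under 0.05). Without shRFP_IFNg replicate 3 the count was 8 negative. Ctsd, cathepsin D, went from 275, 285 and 293 CPM to 350, 361 and 329 CPM with IFNγ in control cells and from 277, 270 and 263 CPM to 239, 233 and 243 CPM in knockdown cells (interaction -0.47, SE 0.06, edgeR adjusted p = 0.00012). The lines overlapped without IFNγ and stood apart with it. Lamp1, a membrane protein of the lysosome, gained a fall (-0.27) and Hexa, a hexosaminidase subunit, lost a rise (-0.30).

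Genes of hypoxia and glycolysis were called in both directions, 4 positive and 3 negative of 35 (20% called, against 9.73% of all genes), with a median of 0.006. The counts were 2 and 1 without shRFP replicate 2, shSdc1 replicate 1 or shSdc1_IFNg replicate 2, 2 and 2 without shSdc1_IFNg replicate 3, and 3 and 1 without shRFP replicate 1 or with the replicate block. Ero1l, an oxidase of the ER, reached 752, 722 and 767 CPM in knockdown and 501, 498 and 531 CPM in control cells, from 502, 524 and 503 and 450, 437 and 391 CPM (interaction 0.29, edgeR adjusted p = 0.0093). Eno1, enolase, lost a rise (-0.28, edgeR adjusted p = 0.01). Of 30 cholesterol genes only Dhcr7 was called (-0.23; 3.33% called, below the 9.73% of all genes), and it lost its call in 9 alternatives. Without a filter 3 were called, all negative. Of 15 p53 targets 1 was called (6.67%, below the share of all genes), and 7 were called, in the positive direction, without shRFP_IFNg replicate 3. That gene, Bbc3, the pro-apoptotic PUMA, went from 9.98, 9.43 and 10.1 to 6.22, 6.92 and 9.02 CPM in control and from 8.75, 9.07 and 8.49 to 10.3, 11.6 and 10.3 CPM in knockdown cells (0.71, edgeR adjusted p = 0.018, lost without shSdc1_IFNg replicate 2).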
